A study of Homo sapiens with 8 samples.

Results

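The genes of the proteasome, the chamber that degrades ubiquitin-tagged proteins, were followed in U87MG cells, an established human glioblastoma line, after enzalutamide, a drug used against prostate cancer. Members were all gene symbols in the count files that begin with PSM, go on with a letter from A to G and end in a number. This gave 48 of 23368 listed genes, of which 47 passed the filter on low counts, among 14448 genes tested. PSMB11, the thymus-specific beta gene, was the exception: it held at most 1 count in any library and was not tested.

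RNA was sequenced (the labels name both mRNA and total RNA) in 4 groups of 2 libraries each: untreated cells, and cells given enzalutamide for 4 h, 24 h or 48 h. All 8 libraries came from cells in DMEM with 10% serum and 1% antibiotics. The untreated group had no time or vehicle named and the drug groups no dose, and the extraction text speaks of a harvest after differentiation that no label explains. The labels do not tell if a group's 2 libraries were grown separately, so every p-value here measures only the spread between these libraries.

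In a cell the proteasome is a barrel of stacked rings. Alpha subunits form the outer rings and gate the entry, and beta subunits form the inner rings, some of which carry the cutting sites. A regulatory cap docks on the alpha ring: its base holds a ring of ATPases that unfold the substrate, and its lid holds the enzyme that removes ubiquitin. Interferon exchanges the cutting subunits for immunoproteasome versions that favour peptides for antigen presentation, and other caps (the PSME proteins) open the gate without ubiquitin. When the proteasome falls short, the transcription factor NFE2L1 is released and binds antioxidant elements in the promoters of many subunit genes.

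The promoters of 4 genes introduce the members, because these 4 include the gene with the largest rise at 48 h (PSMD8) and 2 of the genes with the largest falls (PSMA3, PSMD12), and because both a riser (PSMD9) and a faller (PSMD12) hold an antioxidant element core. Each is the 250 bases before the transcription start in RefSeq, read 5′ to 3′ on the gene's strand, from assembly GRCh38.p14: PSMD8 at chr19:38374321-38374570 (+), PSMD9 at chr12:121888540-121888789 (+), PSMA3 at chr14:58244593-58244842 (+) and PSMD12 at chr17:67366578-67366827 (-). Capitals mark the antioxidant element core TGACNNNGC or the full element TGANTCAGC in PSMD9 and PSMD12, and the CCAAT box in PSMD8 and PSMA3, on either strand.
PSMD8: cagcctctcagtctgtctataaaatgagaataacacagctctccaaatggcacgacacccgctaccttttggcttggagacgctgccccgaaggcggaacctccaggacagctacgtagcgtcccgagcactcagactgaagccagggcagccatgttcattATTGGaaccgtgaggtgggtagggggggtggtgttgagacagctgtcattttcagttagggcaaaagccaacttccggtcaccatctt
PSMD9: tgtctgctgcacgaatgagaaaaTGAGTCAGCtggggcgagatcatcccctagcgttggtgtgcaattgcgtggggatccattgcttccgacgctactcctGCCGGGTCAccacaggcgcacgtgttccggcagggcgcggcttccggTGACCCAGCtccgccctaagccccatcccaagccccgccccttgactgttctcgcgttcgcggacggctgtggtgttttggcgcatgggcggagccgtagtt
PSMA3: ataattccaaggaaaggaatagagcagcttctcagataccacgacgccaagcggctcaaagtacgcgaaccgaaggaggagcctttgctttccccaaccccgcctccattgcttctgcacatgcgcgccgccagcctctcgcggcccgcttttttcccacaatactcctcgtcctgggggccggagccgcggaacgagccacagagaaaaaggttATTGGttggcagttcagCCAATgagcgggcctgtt
PSMD12: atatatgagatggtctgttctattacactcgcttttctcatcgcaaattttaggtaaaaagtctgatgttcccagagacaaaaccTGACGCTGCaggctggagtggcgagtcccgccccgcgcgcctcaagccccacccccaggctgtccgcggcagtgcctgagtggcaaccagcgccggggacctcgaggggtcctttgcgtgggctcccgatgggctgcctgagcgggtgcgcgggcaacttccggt
PSMD9, a chaperone of base assembly, held 3 matches and its level was higher at 48 h. PSMD12, a lid subunit, held 1 match and was lower. PSMD8, also a lid subunit, held 1 CCAAT box, and PSMA3, an alpha subunit, held 2.

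Promoter windows from 250 bases before to 50 bases after the start were found for 42 of the 48 members (51 windows), and 14 motifs were searched on both strands. TGACNNNGC was in windows of 15 members, which was 29.4% of member windows and 13.3% of all 35116 windows. At 48 h, 11 of these 15 genes were called higher and 3 lower, with a median log2 change of 0.31, beside 17 higher and 2 lower of 26 tested members without the match, with a median of 0.23. The full element TGANTCAGC was in PSMD9 alone (1.96% of member windows, 1.36% of all). The interferon element, a pair of GAAA half-sites with 2 bases between them, was in 7 members, among them PSMB8, PSMB10, PSME1 and PSME2 (13.7% against 3.57%). CCAAT was in 20 members (39.2% against 34.6%), GGGCGG in 29 (68.6% against 45%) and CCGGAAG, the ETS motif, in 15 (29.4% against 10.3%). AAGATGGC, the YY1 motif, was in 5 (11.8% against 2.89%), TGACGT in 4 (7.84% against 7.98%), CACGTG in 3 (5.88% against 7.26%), TGATGNAA in PSMF1 (1.96% against 3.62%) and the NRF-type palindrome in PSMA4 (3.92% against 1.24%). The stress element of CCAAT and CCACG with 9 bases between them, the lysosomal element and the heat shock element were in no member window and in 0.0769%, 0.353% and 0.49% of all. TGACGT and TGACNNNGC can overlap, as can CACGTG and the lysosomal element. Directions at 48 h were split by the other motifs too. With GGGCGG, 23 of 29 tested members were called higher and 2 lower (median log2 change 0.31). Without it, 5 of 12 were higher and 3 lower (0.08). With the interferon element 3 of 7 were higher and 1 lower (0.14), and without it 25 of 34 and 4 (0.29). No difference between members with and without a motif was tested. A match describes letters in a window and shows no binding.

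The libraries held 24620833 to 37162565 counts, and the members took 0.680% to 0.753% of them. Values are in CPM (counts per 1000000 counts) after trimmed-mean (TMM) scaling, whose factors ran from 1.02 to 1.08 in the first 6 libraries and were 0.870 and 0.899 at 48 h. That difference matters for levels: scaled by library totals alone, the median gene at 48 h lay at a log2 change of −0.30 from control, against −0.02 with TMM, and changes at 48 h are therefore read relative to the median gene. A gene was called where edgeR's quasi-likelihood test gave a Benjamini-Hochberg adjusted p under 0.05 over all genes tested. In the glioblastoma marker list, 7 of 10 genes exceeded 1 CPM in every library, but SOX2, S100B and GFAP were at or near 0. The genes CDKN2A, CDKN2B and MTAP, deleted in U87MG, summed to no more than 0.0588 CPM. Of 6 immune markers PTPRC, CD3E, CD14 and AIF1 were at or near 0 while CD74 and CSF1R carried nearly all of a sum of 606 to 808 CPM.

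Most proteasome genes rose at 48 h and few were called before. At 48 h, 33 of 47 members were called higher and 5 lower, where 33.3% of all tested genes were called higher and 33.5% lower; the members' median log2 change was 0.29 against −0.02 over all genes. At 4 h, 2 members were called lower (13.6% of all genes were) and 0 higher (15% of all genes were), with a median of 0.00. Unadjusted p-values under 0.05 numbered 3 higher and 2 lower at 4 h, against 2980 and 2794 of all 14448 genes. DESeq2 and limma-voom also called 0 higher at 4 h. A fit of control and 4 h alone called 2 members higher and 4 lower, where 2866 and 2610 of 14199 genes were. At 24 h, 3 were higher and 3 lower, where 12.9% and 9.39% of all genes were, and the median was 0.01. A fit of control and 24 h alone called 7 higher and 7 lower, where 2639 and 2412 of 14137 genes were.

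**Figure D1:**
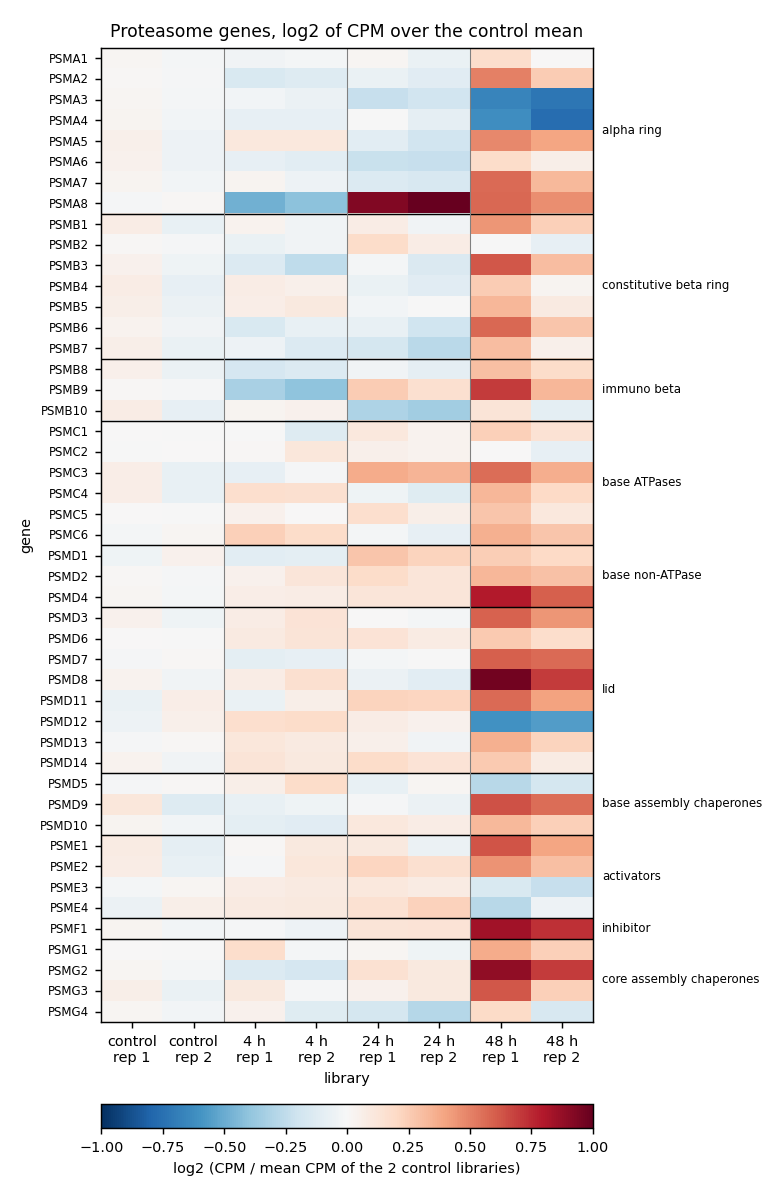
Log2 of each library's CPM over the mean of the 2 control libraries for the 47 tested members (rows, by role) in the 8 libraries (columns). The 48 h columns are mostly red, with PSMA3, PSMA4 and PSMD12 blue, and PSMA8 has the deepest red at 24 h.

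The members' CPM summed to 6763 and 6529 in the control libraries and to 6696 and 6750 at 4 h. The sums were 6924 and 6695 at 24 h, and then 8659 and 7778 at 48 h. Both 48 h sums lay above every other library with TMM scaling, 23.7% above control on average (1.02 times control with library totals). As shares of library totals the members took 0.753% and 0.6995% at 48 h, against 0.723% and 0.703% in control. By that scaling the second 48 h library lay below both control libraries. The 48 h libraries also differed more from each other than those of any other time. By the letters of the symbols, core genes (A and B) had 10 of 18 higher and 2 lower at 48 h with a median log2 change of 0.23. Base, lid and base chaperone genes (C and D) had 17 of 20 higher and 2 lower with a median of 0.29. Activators, the inhibitor and core chaperones (E, F and G) had 6 of 9 higher and 1 lower with a median of 0.38. Summed CPM stood at 1.17, 1.30 and 1.21 times control for these 3 sets, and at 0.961, 1.07 and 0.995 times control with library totals as the only scaling. Of all tested genes, 33.3% were called higher and 33.5% lower at 48 h. Differences between the 3 sets were not tested.

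**Figure D2:**
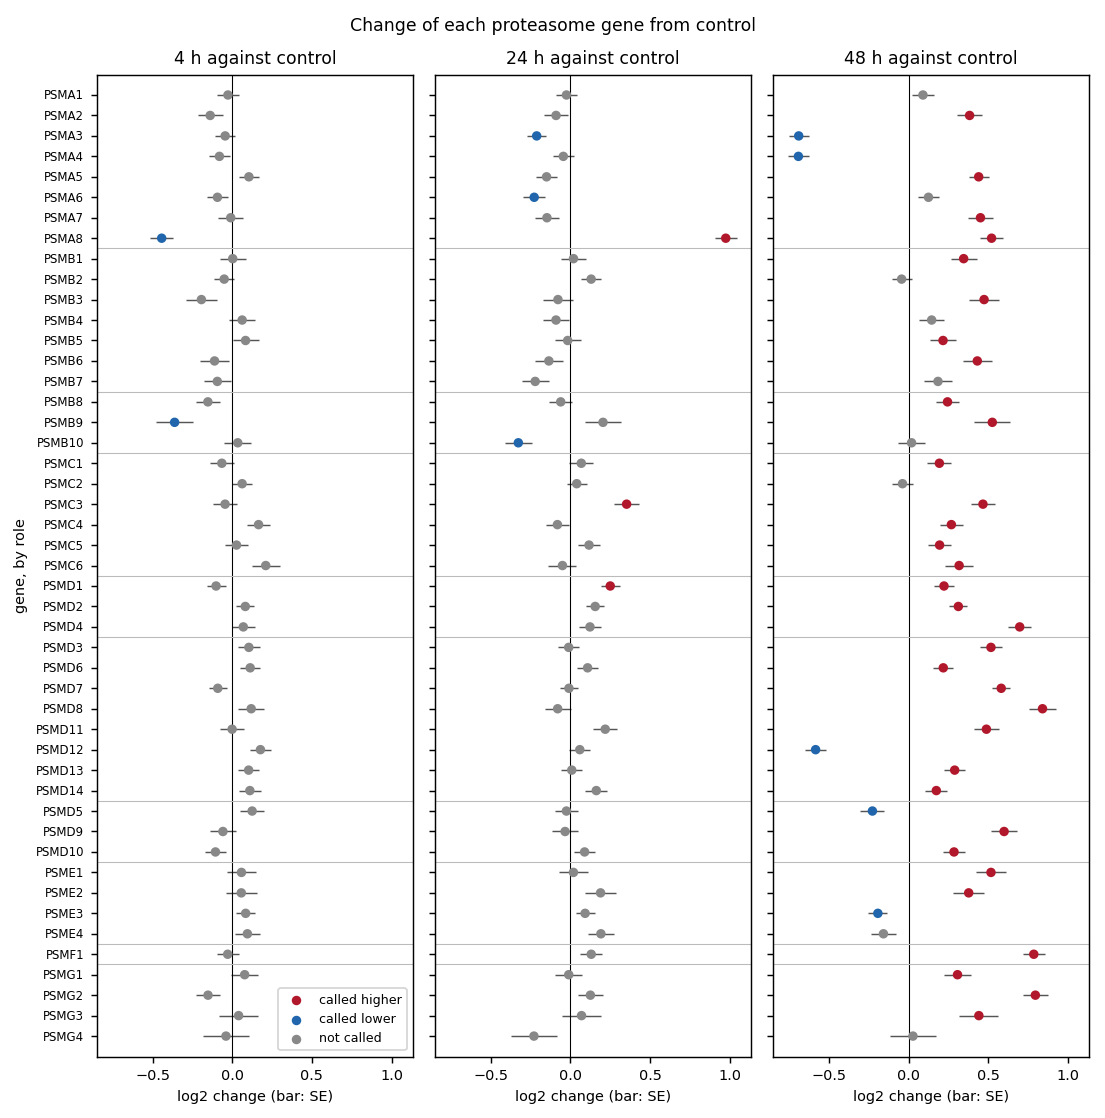
Log2 change of each tested member from control with its standard error at 4 h, 24 h and 48 h, in 3 panels on the same axis (red called higher, blue called lower, grey not called). Calls number 2 at 4 h, 6 at 24 h and 38 at 48 h.

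The alpha ring moved in both directions. At 48 h PSMA2, PSMA5, PSMA7 and PSMA8 were called higher, PSMA3 and PSMA4 lower, and PSMA1 and PSMA6 were not called. PSMA3 measured 121 and 118 CPM in control, 117 and 115 at 4 h, 102 and 105 at 24 h, and then 75.9 and 72.4 at 48 h. Its 24 h libraries lay below all earlier ones and its 48 h libraries lower still (log2 change −0.21 ± 0.06 SE, adjusted p = 0.0288, at 24 h; −0.69 ± 0.06, adjusted p = 2.16e-06, at 48 h; edgeR). PSMA4 measured 138 and 133 CPM in control, 128 in both libraries at 4 h, 135 and 127 at 24 h, and then 87.7 and 79.7 at 48 h. It stayed within 127 to 138 CPM until 24 h and dropped by 48 h (log2 change −0.69 ± 0.07, edgeR adjusted p = 4.56e-06).

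PSMA6 measured 98.1 and 92.0 CPM in control, 89.8 and 88.3 at 4 h, 81.4 and 80.9 at 24 h, and then 108 and 99.1 at 48 h. It was lowest at 24 h, without overlap with control (log2 change −0.23 ± 0.07, edgeR adjusted p = 0.0341), and above all other libraries at 48 h by a change that was not called (0.12 ± 0.07, adjusted p = 0.124). Both 24 h calls, of PSMA3 and PSMA6, were lost when any library of control, 4 h or 24 h was left out. The rises at 48 h were log2 0.38 for PSMA2, 0.44 for PSMA5 and 0.45 for PSMA7, and PSMA1 stood at 0.09. PSMA7 had the highest control level of the members per kilobase of coding sequence, at 453 CPM, and also per kilobase of transcript, at 338.

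PSMA8, the alpha subunit known from germ cells of the testis, had the widest swings. It measured 59.1 and 59.9 CPM in control, 42.7 and 44.7 at 4 h, 113 and 121 at 24 h, and then 88.7 and 82.0 at 48 h. No 2 times overlapped: the level was lowest at 4 h, highest at 24 h and between at 48 h (log2 changes −0.44 ± 0.07, 0.98 ± 0.07 and 0.52 ± 0.07, edgeR adjusted p = 0.000982, 6.68e-06 and 5.38e-05). GENCODE 29 places 1 processed pseudogene of another gene in an intron of PSMA8, and the strand setting of the counting was not given by the labels, so the PSMA8 counts are uncertain and the part of such reads in them was not tested. The same annotation places 1 such pseudogene in an intron of PSMC2, PSMD13, PSMD14 and PSMF1 each, and the same limit holds for their counts. Without PSMA8, calls were 0 higher and 1 lower at 4 h, 2 and 3 at 24 h, and then 32 and 5 at 48 h.

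Among the constitutive beta genes, 4 of 7 were called higher at 48 h (PSMB1, PSMB3, PSMB5 and PSMB6), beside 33.3% of all tested genes. None of the 7 was called at 4 h or 24 h, where unadjusted p-values under 0.05 numbered 0 and 1. The non-catalytic members PSMB1 and PSMB3 rose by log2 0.35 and 0.47, while PSMB2 stood at −0.04 and PSMB4 at 0.14. Of the 3 catalytic members, PSMB6 and PSMB5 were called higher and PSMB7 was not. PSMB6, with the caspase-like site, measured 163 and 156 CPM in control, 144 and 152 at 4 h, 151 and 139 at 24 h, and then 237 and 193 at 48 h. Its 48 h libraries exceeded all others (log2 change 0.43 ± 0.09, edgeR adjusted p = 0.00127), a call lost with library totals (0.15, adjusted p = 0.134). The 24 h change of PSMB6 was not called (−0.14 ± 0.09, edgeR adjusted p = 0.318). It was called lower with the compared groups alone (−0.16, edgeR adjusted p = 0.0398) and without both 48 h libraries (−0.15, adjusted p = 0.0421).

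PSMB5, with the chymotrypsin-like site that proteasome inhibitors bind, measured 126 and 116 CPM in control, 127 and 129 at 4 h, 119 and 121 at 24 h, and then 153 and 129 at 48 h. The second 48 h library fell within the range of 4 h, and the call of a rise (log2 change 0.22 ± 0.08, edgeR adjusted p = 0.0341) was kept in 2 of 8 fits that left out a library; with library totals its sign turned (−0.06, adjusted p = 0.471). PSMB7, with the trypsin-like site, measured 198 and 181 CPM in control, 183 and 172 at 4 h, 168 and 157 at 24 h, and then 234 and 196 at 48 h. Its lowest libraries were those of 24 h, and control and 48 h overlapped (log2 change −0.22 ± 0.09 at 24 h and 0.18 ± 0.09 at 48 h, edgeR adjusted p = 0.0879 and 0.0766). The 24 h change was called lower under 8 alternatives, among them DESeq2 (adjusted p = 0.0468), library totals (edgeR adjusted p = 0.023), a replicate block (0.0213) and the compared groups alone (0.003). The 48 h change was called higher with the replicate block (edgeR adjusted p = 0.0197) and without 48 h replicate 2 (0.32, adjusted p = 0.000817).

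The immunoproteasome genes each had their own time course. PSMB9, the counterpart of PSMB6, measured 24.7 and 24.2 CPM in control, 19.6 and 18.5 at 4 h, 29.1 and 27.3 at 24 h, and then 39.7 and 30.8 at 48 h. It was below control at 4 h and above at 48 h without overlap (log2 change −0.36 ± 0.12 and 0.53 ± 0.11, edgeR adjusted p = 0.0388 and 0.0016), and the 24 h libraries, also above control, were not called (0.20 ± 0.11, adjusted p = 0.227). With a correction for GC content and transcript length the 24 h change was called higher (0.24, edgeR adjusted p = 0.0383). The 4 h call was lost when any of the 6 libraries of control, 4 h or 24 h was left out (adjusted p from 0.0605 to 0.199), and the 48 h call with library totals (0.25, edgeR adjusted p = 0.0625).

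PSMB10, the counterpart of PSMB7, measured 69.1 and 61.9 CPM in control, 66.6 and 67.5 at 4 h, 52.8 and 51.6 at 24 h, and then 71.5 and 61.2 at 48 h. Its 24 h libraries were the lowest, without overlap with any other time (log2 change −0.33 ± 0.09, edgeR adjusted p = 0.0196); that call was lost without control replicate 1 or either 24 h library. At 48 h it was not called (0.02 ± 0.09), though library totals alone gave a call of lower (−0.26, adjusted p = 0.0149). PSMB8, the counterpart of PSMB5, measured 58.0 and 53.8 CPM in control, 49.7 and 50.9 at 4 h, 54.6 and 52.6 at 24 h, and then 68.8 and 63.6 at 48 h. It was above all other libraries at 48 h (log2 change 0.24 ± 0.07, edgeR adjusted p = 0.0115), a sign that turned with library totals (−0.03). The call was lost after correcting for GC content and transcript length (0.12) and without control replicate 2 (0.19). It was also lost with at least 5 CPM in 2 libraries (0.16) and with the compared groups alone (0.22). At 4 h PSMB8 lay below control by a change that was not called (−0.15 ± 0.07, edgeR adjusted p = 0.147). That change was called lower with library totals (−0.22, edgeR adjusted p = 0.0425) and the length and GC correction (−0.18, adjusted p = 0.0284).

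**Figure D3:**
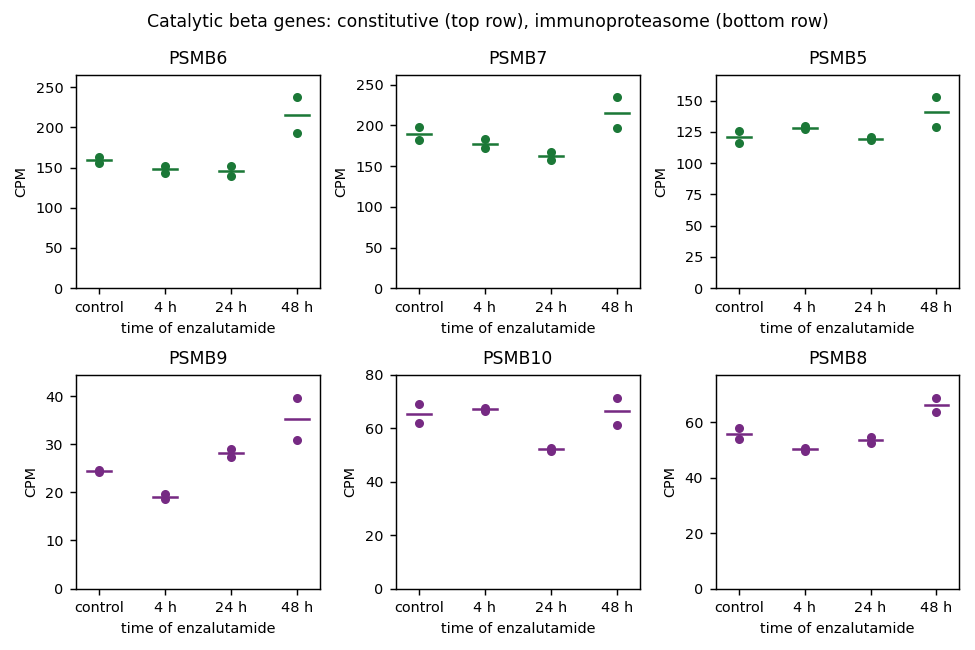
CPM of the 6 catalytic beta genes in each library (points) with the mean of the 2 libraries (line), constitutive genes on top and immunoproteasome counterparts below, each on its own axis from 0. PSMB6 and PSMB9 are highest at 48 h, PSMB9 is lowest at 4 h and PSMB10 is lowest at 24 h.

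Per kilobase of coding sequence every immunoproteasome gene stood below its constitutive counterpart in all 8 libraries. The ratio of PSMB8 to PSMB5 was 0.373 to 0.471, with means of 0.440 in control and 0.451 at 48 h. PSMB9 over PSMB6 ranged from 0.133 to 0.214: its mean was 0.167 in control, 0.141 at 4 h, 0.212 at 24 h and 0.178 at 48 h. PSMB10 over PSMB7 ranged from 0.309 to 0.398, with means of 0.350 in control, 0.384 at 4 h, 0.326 at 24 h and 0.313 at 48 h. PSMB8 and PSMB9 overlap each other and an antisense gene in GENCODE 29, so the authors' counting could have split reads between them.

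In the base, 5 of 6 ATPase genes and all 3 non-ATPase genes were called higher at 48 h, beside 33.3% of all tested genes. PSMC3 measured 171 and 155 CPM in control, 154 and 162 at 4 h, 211 and 206 at 24 h, and then 241 and 211 at 48 h. It rose by 24 h already, with no overlap with control or 4 h (log2 change 0.35 ± 0.08 at 24 h and 0.47 ± 0.08 at 48 h, edgeR adjusted p = 0.00788 and 0.000247). PSMD1, the large scaffold of the base, measured 206 and 219 CPM in control, 197 and 199 at 4 h, 257 and 248 at 24 h, and then 252 and 243 at 48 h. Its 24 h and 48 h libraries were alike and all above control (log2 change 0.25 ± 0.06 and 0.22 ± 0.06, edgeR adjusted p = 0.0125 and 0.00633), though library totals turned the sign at 48 h (−0.06) and the 48 h call was lost without control replicate 1. Both 24 h calls, of PSMC3 and PSMD1, were lost when either 24 h library was left out, and also without control replicate 2 for PSMC3 and without control replicate 1 for PSMD1.

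PSMD4, a ubiquitin receptor, measured 131 and 128 CPM in control, 136 in both libraries at 4 h, 141 in both at 24 h, and then 225 and 196 at 48 h. It rose 1.62-fold by 48 h, when both libraries lay above all others (log2 change 0.70 ± 0.07, edgeR adjusted p = 5.74e-06). PSMD2, the other scaffold of the base, rose by log2 0.31 at 48 h. The remaining ATPase genes rose by log2 0.19 (PSMC1), 0.27 (PSMC4), 0.19 (PSMC5) and 0.32 (PSMC6), of which PSMC1, PSMC4 and PSMC5 turned below 0 with library totals, and PSMC2 stood at −0.04. Per kilobase of coding sequence PSMC6 stood at 16.1 and PSMC1 at 36.6 CPM in control, against 101 to 124 for the other 4 ATPase genes, although the ATPases form 1 ring together. PSMC1 has 13 named pseudogenes in GENCODE 29, and its counts are uncertain where reads could fit several copies; PSMC6 has 0 named.

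In the lid, 7 of 8 genes were called higher at 48 h, beside 33.3% of all tested genes. PSMD8 measured 338 and 322 CPM in control, 347 and 370 at 4 h, 318 and 307 at 24 h, and then 646 and 537 at 48 h. Its 48 h libraries lay far above the others, a 1.79-fold rise and the largest among the members (log2 change 0.84 ± 0.08, edgeR adjusted p = 4.48e-06). PSMD7 and PSMD3 rose by log2 0.58 and 0.52, PSMD11 by 0.49, PSMD13 by 0.29 and PSMD6 by 0.22. PSMD14, the enzyme that cuts ubiquitin off, rose by 0.17, a call kept in 1 of 8 fits that left out a library; with library totals PSMD14 and PSMD6 turned below 0 (−0.11 and −0.06).

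PSMD12 went against the rest of the lid. It measured 67.3 and 72.5 CPM in control, 78.7 and 79.3 at 4 h, 73.7 and 71.9 at 24 h, and then 45.9 and 47.4 at 48 h. It was highest at 4 h, by a change that was not called (log2 change 0.18 ± 0.07, edgeR adjusted p = 0.0705), and lowest at 48 h (−0.58 ± 0.07, adjusted p = 1.74e-05). Some alternatives called the 4 h change higher. Among them were a fit of control and 4 h alone (edgeR adjusted p = 0.0305), a fit without both 48 h libraries (0.0159) and the length and GC correction (0.0122).

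Most genes that help to build the proteasome rose at 48 h. Of 7 assembly chaperones of the base and the core, 5 were called higher and 1 lower at 48 h, beside 33.3% and 33.5% of all tested genes. The summed CPM of these 7 stood at 1.30 times control (1.07 with library totals). PSMG2, which pairs with PSMG1 to start the alpha ring, measured 50.2 and 48.8 CPM in control, 45.0 and 44.1 at 4 h, 55.0 and 52.9 at 24 h, and then 91.5 and 80.4 at 48 h. Its 48 h libraries exceeded all others 1.74-fold over control (log2 change 0.80 ± 0.08, edgeR adjusted p = 3.82e-06), and its partner PSMG1 rose by 0.31. PSMG3 rose by 0.44 and PSMG4 stood at 0.03. Of the base chaperones, PSMD9 rose by 0.60 and PSMD10 by 0.29. PSMD5, a base chaperone that inhibits assembly, measured 61.6 and 62.8 CPM in control, 64.8 and 70.7 at 4 h, 59.2 and 63.1 at 24 h, and then 51.3 and 55.0 at 48 h. It was lowest at 48 h, below all other libraries (log2 change −0.23 ± 0.07, edgeR adjusted p = 0.0187). The change was 0.0012 after the correction for GC content and transcript length, but PSMD5 was still called lower with library totals (−0.50). Its call was lost without either control library or 48 h replicate 1.

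The activators divided by 48 h. PSME1 measured 98.8 and 88.0 CPM in control, 94.4 and 100 at 4 h, 99.7 and 89.6 at 24 h, and then 145 and 123 at 48 h. PSME2, its partner in the interferon-inducible cap, measured 21.9 and 19.8 CPM in control, 20.7 and 22.6 at 4 h, 24.2 and 23.3 at 24 h, and then 28.4 and 25.6 at 48 h. Both genes were above all earlier libraries at 48 h (log2 change 0.52 ± 0.09 and 0.38 ± 0.10, edgeR adjusted p = 0.000458 and 0.00493). PSME3, which forms a nuclear cap, measured 138 and 142 CPM in control, 148 and 149 at 4 h, 150 and 148 at 24 h, and then 126 and 119 at 48 h. PSME4, a large nuclear activator, measured 104 and 113 CPM in control, 116 in both libraries at 4 h, 121 and 127 at 24 h, and then 89.8 and 105 at 48 h. PSME3 was called lower at 48 h, below all other libraries (log2 change −0.19 ± 0.06, edgeR adjusted p = 0.0136). That call and the one of PSME2 were lost without control replicate 2 (edgeR adjusted p = 0.0904 and 0.0536), and that of PSME2 also with library totals (0.384). PSME4 lay above control in both 24 h libraries, by a change that was not called. Some alternatives called that 24 h change higher. Among them were a replicate block (0.19, edgeR adjusted p = 0.0495), the compared groups alone (0.17, adjusted p = 0.0263) and a fit without both 48 h libraries (0.17, adjusted p = 0.0205). At 48 h PSME4 overlapped with control and was not called (−0.16 ± 0.08, edgeR adjusted p = 0.104), and alternatives gave calls in both directions. Its 48 h level was called lower with library totals (−0.43, edgeR adjusted p = 0.00128), with at least 5 CPM in 2 libraries (−0.24, adjusted p = 0.0219), with a replicate block (−0.16, adjusted p = 0.0485) and without 48 h replicate 2 (−0.26, adjusted p = 0.00291), and higher after the length and GC correction (0.13, adjusted p = 0.03).

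PSMF1, the inhibitor that competes with the caps for the alpha ring, measured 56.9 and 54.7 CPM in control, 55.4 and 54.0 at 4 h, 61.0 and 61.2 at 24 h, and then 99.9 and 92.6 at 48 h. It rose 1.72-fold by 48 h with no overlap (log2 change 0.79 ± 0.07, edgeR adjusted p = 1.64e-06). The 24 h libraries were also above control, by a change that was not called (0.13 ± 0.07, adjusted p = 0.199).

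Between times, 8 members were called higher and 5 lower at 24 h against 4 h, where 21.2% and 20.3% of all genes were. At 48 h against 24 h, 29 were higher and 8 lower, where 31.5% and 35.3% of all genes were. The 48 h comparisons with control and with 24 h share the 48 h libraries. Of the 33 genes called higher at 48 h, 23 were called in all 8 fits that left out a library, and of the 5 called lower, 3 were (PSMA3, PSMA4 and PSMD12). When scaled by library totals alone, 13 of the 33 were called higher, 8 were below 0 and all 5 lower genes were called lower. Of all 14448 genes tested, 2742 were then called higher and 6729 lower. The members' median was then 0.01, which was 0.31 above the median gene. Such a change of scaling moves all genes by nearly the same amount, so it could not alter this gap. PSMA1, PSMB2 and PSMC2, which were not called, were then called lower (−0.19, −0.32 and −0.32), while the length and GC correction called PSMA1 and PSMC2 higher (0.16 and 0.20). After the length and GC correction 35 members were called higher and 4 lower, where 5367 and 3384 of all 12318 genes tested were. The members' median of 0.28 then stood 0.14 above that of all genes. For 48 h against 24 h the medians of members and all genes were 0.28 and −0.07. After this correction they were 0.23 and 0.13. A filter of at least 5 CPM in 2 libraries called 27 members higher and 6 lower at 48 h against control, where 3978 and 4161 of 11076 genes were. With this filter the members' median was 0.21, which was 0.20 above that of all genes.

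The first 48 h library exceeded the second in 44 of 47 members, by a median log2 ratio of 0.14, and this ratio went with transcript length across members (Spearman rho −0.683 over 47 genes that share both libraries, a description). The log2 change at 48 h itself had a rho of −0.0737 with transcript length and 0.0742 with mean CPM. Without the first 48 h library 28 members were higher and 4 lower, and without the second 37 and 6.

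Genes around the proteasome were followed as 4 lists, beside shares over all tested genes of 15% higher and 13.6% lower at 4 h. These shares were 12.9% and 9.39% at 24 h, then 33.3% and 33.5% at 48 h. Of 11 partners of the particle, 4 were called higher (36.4%) and 1 lower (9.09%) at 4 h, 1 higher (9.09%) at 24 h, and 3 higher and 3 lower (27.3% each) at 48 h, when their median log2 change was −0.02. The 24 h and 48 h shares lay below those of all genes. The ubiquitin receptor ADRM1 rose by log2 0.38 at 4 h and 0.63 at 48 h, and TXNL1, a thioredoxin of the cap, by 0.35 and 0.66. The ubiquitin protease USP14 rose by 0.24 and 0.25 at 4 h and 24 h and stood at −0.02 at 48 h, where it was called higher with the length and GC correction (0.27, edgeR adjusted p = 0.000363) and lower with library totals (−0.29, adjusted p = 0.00343). Its 4 h and 24 h calls were both lost with library totals (adjusted p = 0.084 and 0.0763) and when any 1 of the control libraries or those of that time was left out (0.071 to 0.127 and 0.0693 to 0.125). TXNL1 lost its 4 h call without control replicate 2 or 4 h replicate 1. UBE3C, a ligase on the proteasome, fell by 0.91 at 48 h and the phosphatase UBLCP1 by 0.83, while FBXO7 rose by 0.53.

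Of 8 genes of the NFE2L1 route, 4 were called higher (50%) at 4 h, 1 (12.5%, near the 12.9% of all genes) at 24 h, and 6 higher (75%, against 33.3%) and 1 lower (12.5%) at 48 h, with a median log2 change of 0.70. NFE2L1 itself measured 1001 and 933 CPM in control and 1501 and 1508 at 48 h (log2 change 0.64 ± 0.06, edgeR adjusted p = 2.08e-06) and stood at 0.01 at 4 h. Its relative NFE2L2 rose by 0.24 at 4 h and 1.08 at 48 h. DDI2, the protease that cuts NFE2L1 free, rose by 0.91 and 1.24 from 4.42 and 4.80 CPM in control, and NGLY1, which removes its sugars, rose by 0.26 at 24 h and 0.76 at 48 h. The 24 h call of NGLY1 was lost with DESeq2 (adjusted p = 0.085), with its size factors (edgeR adjusted p = 0.0643), with library totals (0.0929) and when any library of control, 4 h or 24 h was left out (0.0722 to 0.231). The 4 h calls were lost for DDI2 without control replicate 1 or 4 h replicate 1, and for NFE2L2 without either control library or 4 h replicate 2 and with library totals. The partners MAFF and MAFK rose by 0.71 and 1.26 at 4 h. At 48 h MAFF was higher by 0.93 and MAFK stood at −0.11, called lower with library totals (−0.39, edgeR adjusted p = 0.0083).

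Of 16 genes for ubiquitin and its delivery, 4 were called higher (25%, against 15% of all genes) at 4 h, 3 higher (18.8%) and 1 lower (6.25%) at 24 h, and 14 higher (87.5%, against 33.3%) and 2 lower (12.5%) at 48 h. Their median log2 change at 48 h was 0.60, and their summed CPM then stood at 1.94 times control, or 1.60 times with library totals. SQSTM1 carried a large part of that summed rise. Its mean went from 1461 CPM in control to 4293 at 48 h, and the list's sum from 4554 to 8813. UBB, a polyubiquitin gene, rose by log2 0.27 at 4 h and 0.60 at 48 h, the shuttle and autophagy receptor SQSTM1 by 0.47 and 1.55, and the proteasome-binding ZFAND2A by 0.63 and 1.20. RAD23B, a shuttle, rose by 0.91 at 48 h and the chaperone BAG6 by 0.87. NPLOC4, a cofactor of VCP, rose by 0.22 at 4 h and fell by 0.61 at 48 h. Its 4 h call was lost when any 1 of the control or 4 h libraries was left out (edgeR adjusted p = 0.0647 to 0.109) and with library totals as the only scaling (edgeR adjusted p = 0.066). UBQLN2 fell by 0.25 at 24 h and rose by 0.71 at 48 h, and UFD1L rose by 0.50 and 0.58 at these times. The 24 h call of UBQLN2 was lost when any library of control, 4 h or 24 h was left out (edgeR adjusted p = 0.0595 to 0.277), and the 4 h call of UBB without control replicate 2 or either 4 h library. A difference between this list and the proteasome members was not tested.

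Of 13 antigen presentation genes, 3 were called lower (23.1%, against 13.6% of all genes) at 4 h, 1 higher (7.69%) and 4 lower (30.8%, against 9.39%) at 24 h, and 9 higher (69.2%, against 33.3%) and 3 lower (23.1%) at 48 h, with a median log2 change of 0.43. TAP1, which neighbours PSMB9 and pumps peptides into the endoplasmic reticulum, stood at 0.06 at 4 h and rose by log2 0.51 at 24 h and 0.56 at 48 h. The interferon regulator IRF1 fell by 0.50 at 24 h and rose by 1.35 at 48 h, and NLRC5, an activator of class I genes, fell by 0.44 and 1.28. B2M rose by 0.62 at 48 h, and HLA-E fell by 0.30 at 24 h and rose by 0.47 at 48 h. The 24 h calls were lost for IRF1 without control replicate 1 or 24 h replicate 1, for NLRC5 without 24 h replicate 1 and for HLA-E without 24 h replicate 2. The peptide trimmer ERAP2 fell by 0.52 at 4 h. ERAP1, another trimmer, and TAPBP were called lower at 4 h (−0.25 and −0.26), but ERAP1 lost that call without control replicate 2 or either 4 h library (edgeR adjusted p = 0.0802 to 0.1) and TAPBP without control replicate 1 or either 4 h library (0.0549 to 0.064). At 48 h TAPBP fell by 0.35. ERAP1 stood at 0.25, called higher but below 0 with library totals (−0.02), and ERAP2 at −0.25, called lower but at 0.03 after the length and GC correction and not called without control replicate 2.

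**Figure D4:**
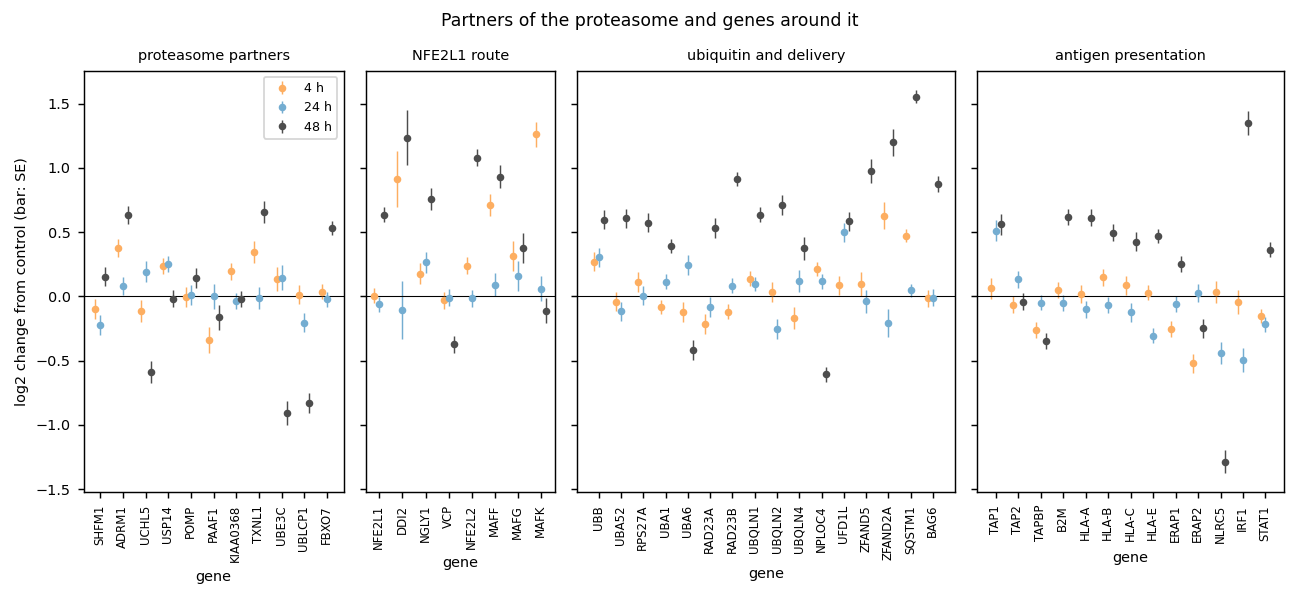
Log2 change from control with its standard error at 4 h (orange), 24 h (blue) and 48 h (dark grey) for the 48 genes of the 4 lists around the proteasome. SQSTM1, ZFAND2A, DDI2, NFE2L2 and IRF1 lie above 1 at 48 h, and MAFK is the gene above 1 at 4 h.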

How the data were processed

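Deposited values were raw counts per gene symbol for 8 RNA-seq libraries of U87MG cells. The authors' mapping names Bowtie with hg19 (GRCh37), per the submitters' processing notes; versions, the counter, annotation and strand setting: not given in the sources used here. These count files hold 28 rows with date-like names, at most 0.224% of a library's counts, which no list uses.

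Genes with enough counts (filterByExpr) were fitted with edgeR 4.0.16 in R 4.3.3: TMM scaling, 1 coefficient per group, all 8 libraries (4 residual degrees of freedom), the quasi-likelihood test, two-sided, Benjamini-Hochberg adjustment over 14448 genes, calls under 0.05. CPM uses TMM-scaled totals. SE is the log2 change over the square root of F. Alternatives used limma 3.58.1, DESeq2 1.42.0 (size factors and test), library totals, no filter, at least 5 CPM in 2 libraries, a replicate block, each comparison's groups alone, and each library left out; 3 were added after seeing the data (no 48 h libraries; loess correction for length and GC with span 0.5, covering 85.3% of tested genes and all 47 members; counts without PSMA8). The pipeline was tested on simulated data. Members and lists were chosen with earlier results of these data known. A few genes are not reported here, and the lists were counted without them.

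Per-library values were given for the 6 catalytic beta genes, the PSME genes, PSMF1, up to 4 largest called rises and falls per comparison with control, and members called against their role class; of each related list, up to 3 called genes with the smallest p per comparison. Lengths, pseudogenes and overlaps come from GENCODE 29 (median over principal transcripts) and promoters from RefSeq GRCh38.p14; both differ from the authors' build, so no coordinate was carried over. Chi-square per degree of freedom between the 2 libraries of a group was 4.50 to 20.8, above counting noise, so no pair was treated as copies of 1 library; this does not tell if they were separate cultures.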

Additional observations from a re-analysis of the deposited data

Results flagged for a closer look

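Changes between times that the test of the difference itself called (edgeR's quasi-likelihood test, adjusted p under 0.05) are given here as values with no explanation. Between 4 h and 24 h, 8 members were called higher and 5 lower (17% and 10.6%). These shares lay below the 21.2% and 20.3% of all genes tested. PSMA8 had the widest step, a log2 change of 1.42. PSMB9 rose by 0.57, PSMC3 by 0.40, PSMD1 by 0.35 and PSMG2 by 0.28, while PSMB10 changed by −0.36 and PSMA3 by −0.17.

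Between 24 h and 48 h, 29 members were called higher and 8 lower (61.7% and 17%), where 31.5% and 35.3% of all genes tested were. PSMD8 rose by 0.92, PSMG2 by 0.67, PSMF1 by 0.66, PSMD4 by 0.58 and PSME1 by 0.50. All 6 catalytic beta genes rose over this interval: PSMB6 by 0.57, PSMB7 by 0.41, PSMB10 by 0.35, PSMB9 by 0.32, PSMB8 by 0.31 and PSMB5 by 0.23. PSMA6 rose by 0.35. The falls among the genes given by library were −0.65 for PSMA4, −0.64 for PSMD12, −0.48 for PSMA3, −0.45 for PSMA8, −0.35 for PSME4, −0.29 for PSME3 and −0.20 for PSMD5.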

How the results depend on the processing

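Leaving out each library in turn gave, at 4 h, 0 to 2 members higher and 1 to 4 lower; at 24 h, 1 to 8 and 0 to 6; at 48 h, 24 to 37 and 3 to 6, with 3 lower without control replicate 2; for 24 h against 4 h, 4 to 9 and 0 to 8; and for 48 h against 24 h, 22 to 35 and 6 to 7. Where a group is left with 1 library, that library is assumed to vary like the others. Fits of each comparison's groups alone called 2 higher and 4 lower at 4 h, 7 and 7 at 24 h, and 12 lower for 24 h against 4 h. Over all genes these fits called 2866 and 2610 of 14199, 2639 and 2412 of 14137, and 3701 lower of 14194. A fit without both 48 h libraries called 2 and 4 members, 7 and 7, and 13 lower. Over all 14388 genes it called 3046 and 2742, 2577 and 2330, and 3903 lower. Library totals called 5 lower at 4 h, 6 lower at 24 h, 13 higher and 10 lower at 48 h, and 14 higher and 11 lower for 48 h against 24 h. Over all 14448 genes, library totals called 2667 lower at 4 h and 1920 lower at 24 h. They called 2742 higher and 6729 lower at 48 h, and 3088 and 6527 for 48 h against 24 h. The length and GC correction called 2 and 5 at 4 h, 6 and 5 at 24 h, and 5 lower for 48 h against 24 h. Over all 12318 genes it called 2252 and 2570 at 4 h, 1801 and 1765 at 24 h, and 3423 lower for 48 h against 24 h. DESeq2 and its size factors in edgeR each called 5 higher for 24 h against 4 h, where 2608 and 2848 of 14448 genes were. No filter called 3 lower there, where 2727 of 19903 genes were, and without PSMA8 1 was lower at 4 h. Signs turned with library totals at 48 h for PSMB5 (−0.064), PSMB8 (−0.034), PSMD1 (−0.056), PSMC1 (−0.085), PSMC4 (−0.010), PSMC5 (−0.085), PSMD6 (−0.061), PSMD14 (−0.11) and ERAP1 (−0.023), and PSMB10 (−0.26), PSME4 (−0.43) and USP14 (−0.29) were called lower; with the length and GC correction PSMD5 stood at 0.0012, PSME4 at 0.13, USP14 at 0.27 and ERAP2 at 0.028. In these cases the cause was not tested. The labels number the libraries 1 and 2 in each group without saying that a number marks a shared culture, and deviations of same-numbered libraries correlated at −0.00488 to 0.135; a replicate block gave 0 higher and 3 lower at 4 h, 4 and 4 at 24 h, 34 and 6 at 48 h, 8 and 6 for 24 h against 4 h, and 29 and 8 for 48 h against 24 h. With 2 libraries a group, a change that was not called is not shown to be absent.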
